A study of Homo sapiens
Mus musculus with 3 samples.

Results

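IVA12 is a mouse hybridoma line of B-cell origin, and its transcripts were read in single nanowells of 3 ICELL8 libraries. Each library held an equal mixture of IVA12 with EL4, a mouse T-cell lymphoma line, and the human T-cell leukemia lines Jurkat and TALL-104. No treatment was compared in these libraries. Each line was grown in its own medium with serum, IVA12 in DMEM, EL4 with mercaptoethanol added and TALL-104 with interleukin 2 added. The kit of the manufacturer, named 3'DE after 3' differential expression, was used for 2 libraries, called library 1 and library 2 here. The group 3'DE-UMI had 1 library, called the UMI library, for which the cDNA was cleaned and digested with exonuclease before amplification so that unique molecular identifiers (UMIs) could count molecules. The study's sample summary lists the later 3'DE library and the UMI library under the same cell mixture, with a lower viability of IVA12 cells than in the mixture of the earlier library, so mixture and protocol are partly joined in this design. No source says that the libraries came from separate cultures, and every p-value below rests on these libraries alone. For the comparison of the lines within libraries, the spread measured is that of the line difference from library to library.

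The IVA12 wells were chosen by their reads. A well was kept with at least 1000 reads and 200 genes, and it was a mouse well with under 10% of reads on human genes. It was then called IVA12 when the summed reads of 5 B genes (Ms4a1, Cd79a, Cd79b, Mzb1, Ckap4) were at least 3 and at least 3 times the summed reads of 5 T genes (Cd3e, Cd3d, Cd3g, Il7r, Lck). EL4 wells were taken by the mirror of this rule. Of 4360 kept wells, 867 were IVA12 and 1392 were EL4. By library, IVA12 took 440 of 1635 kept wells in library 1, 229 of 1432 in library 2 and 198 of 1293 in the UMI library. The levels of the 10 genes in these wells follow from the choice and are given as description, with no test. The tables list Ensembl identifiers without gene symbols, so only these 10 genes have names here, and other genes are given by identifier.

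A hybridoma is made by fusing an antibody-producing B cell with a myeloma cell, which gives an immortal line that secretes one antibody. B cells carry a surface antigen receptor whose signal is passed on by a pair of chains encoded by Cd79a and Cd79b, and mature B cells also carry CD20, the product of Ms4a1. Antibody secretion needs a large endoplasmic reticulum. Mzb1 encodes a chaperone partner of that compartment that helps antibody assembly, and Ckap4 encodes a membrane protein of its sheets. On the T side, Cd3d, Cd3e and Cd3g encode chains of the T-cell receptor complex, Lck encodes the kinase that starts its signal, and Il7r encodes the receptor chain for interleukin 7.

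The label was checked on genes that the choice did not use. Each mouse well was compared, over all genes other than those 10 with at least 20 CPM (reads per 1000000 mouse reads) in either line, with the mean profiles of IVA12 and EL4 wells in the other libraries. In library 1, 440 of 440 IVA12 wells were nearer to the IVA12 profile. The count was 228 of 229 in library 2 and 198 of 198 in the UMI library. The median correlation of an IVA12 well with the IVA12 profile, across genes, was 0.615, 0.558 and 0.497 in the 3 libraries, against 0.494, 0.451 and 0.403 with the EL4 profile. EL4 wells went the other way in 465 of 466, 493 of 493 and 432 of 433 cases. Well barcodes come from a fixed set of chip positions, and 529, 539 and 469 of them were found in both libraries of a pair. Wells called IVA12 in both libraries of a pair under one barcode numbered 58, 47 and 32, which are different wells with a shared position.

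**Figure D1:**
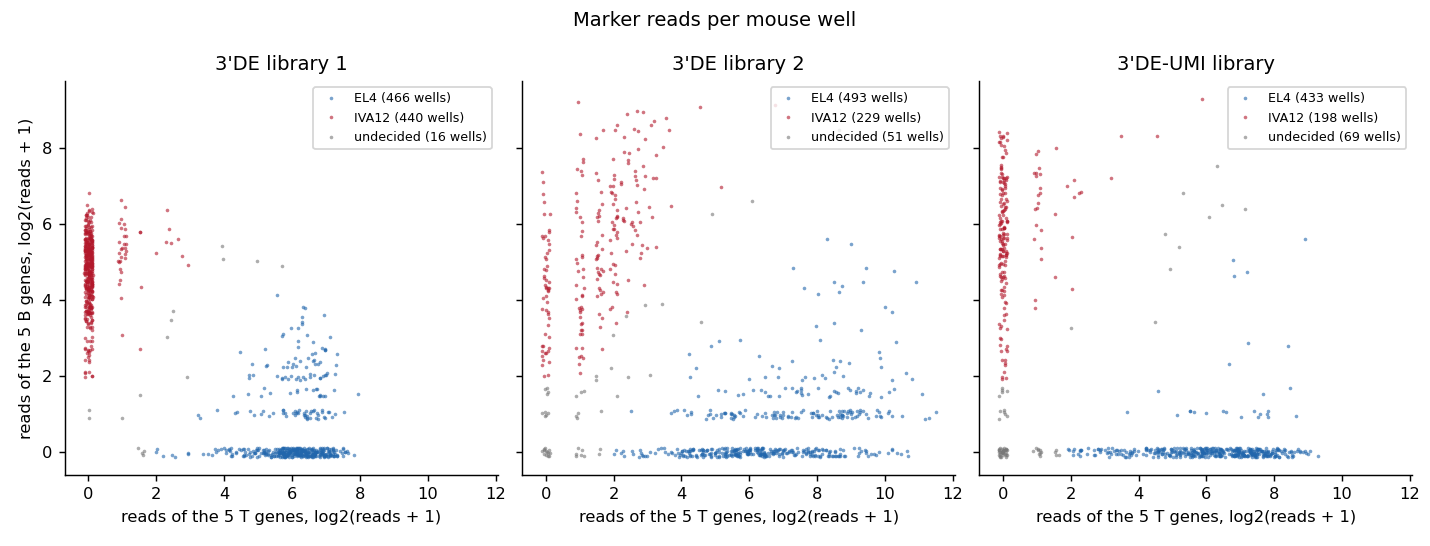
Reads of the 5 B genes against reads of the 5 T genes in each mouse well, both as log2(reads + 1) with a small random shift so that points do not overlap, 1 panel per library. IVA12 wells (red) lie along the left side and EL4 wells (blue) along the bottom, with 16, 51 and 69 undecided wells (gray) near the origin or between them, and in library 2 the IVA12 wells reach further to the right, with a median of 2 T gene reads.

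IVA12 made up 48.6% of the mouse wells assigned to a line in library 1 (440 of 906, exact Clopper-Pearson 95% interval 45.3 to 51.9%). In library 2 the share was 31.7% (229 of 722, 28.3 to 35.3%), and in the UMI library it was 31.4% (198 of 631, 27.8 to 35.2%). The intervals cover counting error only. The first value lies above both others, and the latter pair, from the same mixture but different protocols, overlaps. With 2 libraries against 1, an exact permutation test cannot go below p = 0.33 for either split, so none was run. Undecided wells numbered 16, 51 and 69 and were shallow where both marker sums were under 3, with a median of 2941 mouse reads in the 37 such wells of library 2. By profile, 44 of the 51 undecided wells of library 2 were nearer to IVA12, against 8 of 16 in library 1 and 30 of 69 in the UMI library. When every mouse well was given to its nearer profile, an alternative chosen after seeing the data, the shares were 48.7%, 35.2% and 32.7%. With a stricter choice of at least 10 marker reads and 10 times those of the other line, the share in library 2 was 26.7%.

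At the edge of the choice, 9, 7 and 8 IVA12 wells held only 3 or 4 B gene reads. Their median depth was 4919 mouse reads in library 1, 3609 in library 2 and 15553 in the UMI library. Just outside it, 4, 16 and 11 wells had 1 or 2 B gene reads and fewer than 3 T gene reads, at median depths of 3766, 4889 and 17667. By comparison, the median IVA12 well held 29, 42 and 58 B gene reads. Of the wells with 3 or 4 reads, 9 of 9, 6 of 7 and 8 of 8 were nearer to the IVA12 profile.

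Ms4a1 stood at 306 CPM in the summed IVA12 wells of library 1, at 283 in library 2 and at 364 in the UMI library. EL4 wells held 4.61, 1.79 and 0.398 CPM of Ms4a1. It was found in 79.8%, 65.5% and 53.5% of IVA12 wells, against 4.94%, 5.48% and 0.924% of EL4 wells, a line that should lack CD20. These shares were at median depths of 20289, 30097 and 36195.5 mouse reads per IVA12 well and 28508, 37245 and 31583 per EL4 well. After thinning each well to 5000 reads, which left out 19, 14 and 3 shallower IVA12 wells and 9, 17 and 5 EL4 wells, Ms4a1 was found in 65.6%, 46.0% and 40.5% of IVA12 wells and in 1.97%, 0.84% and 0.467% of EL4 wells. The level of Ms4a1 was thus not lowest in the library with the lowest share of wells, and no order of the protocols is read from these shares.

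Mzb1, the antibody chaperone partner, was the B gene found most often. Its level was 857, 704 and 1131 CPM in IVA12 wells of library 1, library 2 and the UMI library, and 16.1, 11.01 and 4.32 CPM in EL4 wells. It was detected in 433 of 440, 218 of 229 and 189 of 198 IVA12 wells. Wells that were called IVA12 on Mzb1 alone made up 2.27%, 7.42% and 17.2% of IVA12 wells. Mzb1 gave 52.9%, 52.5% and 60.1% of all B gene reads in these wells, so the choice of wells rested on it more than on any other gene of the 5. When wells were chosen without Mzb1, an alternative added after seeing the data, 400, 176 and 152 wells remained IVA12. In them the level of Mzb1 was 853, 677 and 1137 CPM, close to that under the full rule, against 18.9, 12.5 and 24.2 CPM in EL4 wells chosen the same way.

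Cd79b, the receptor chain, was at 324, 178 and 257 CPM in IVA12 wells and at 8.69, 3.34 and 3.98 CPM in EL4 wells. It was found in 84.5%, 71.2% and 56.1% of IVA12 wells. Ckap4 was at 133, 175 and 130 CPM, against 3.17, 0.647 and 0.227 CPM in EL4 wells, and was found in 63.4%, 65.1% and 43.4% of IVA12 wells. For all 4 of these B genes the IVA12 values of the 3 libraries lay above all 3 EL4 values, a gap that the choice of wells favors.

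Cd79a differed from the other B genes. No read of it was found in any of the 867 IVA12 wells, among 32731964 mouse reads in all, and no UMI in the UMI library. A count of 0 allows a share of up to 0.346% of wells with a read and, in the UMI library, up to 3.53 UMIs per 1000000 UMIs. The gene was listed in the tables and was not empty across the series: 7 reads were present, in 2 EL4 wells, with 1 read in library 2 and 6 reads in a well of the UMI library, where they gave no UMI. Cd79a was thus not detected at this depth, while its partner Cd79b was found in most IVA12 wells of each library, and the B side of the choice was carried by 4 genes. Whether the annotation used for counting covers the 3' end of Cd79a transcripts was not tested, and 0 reads are not taken as absence of the transcript from the line.

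**Figure D2:**
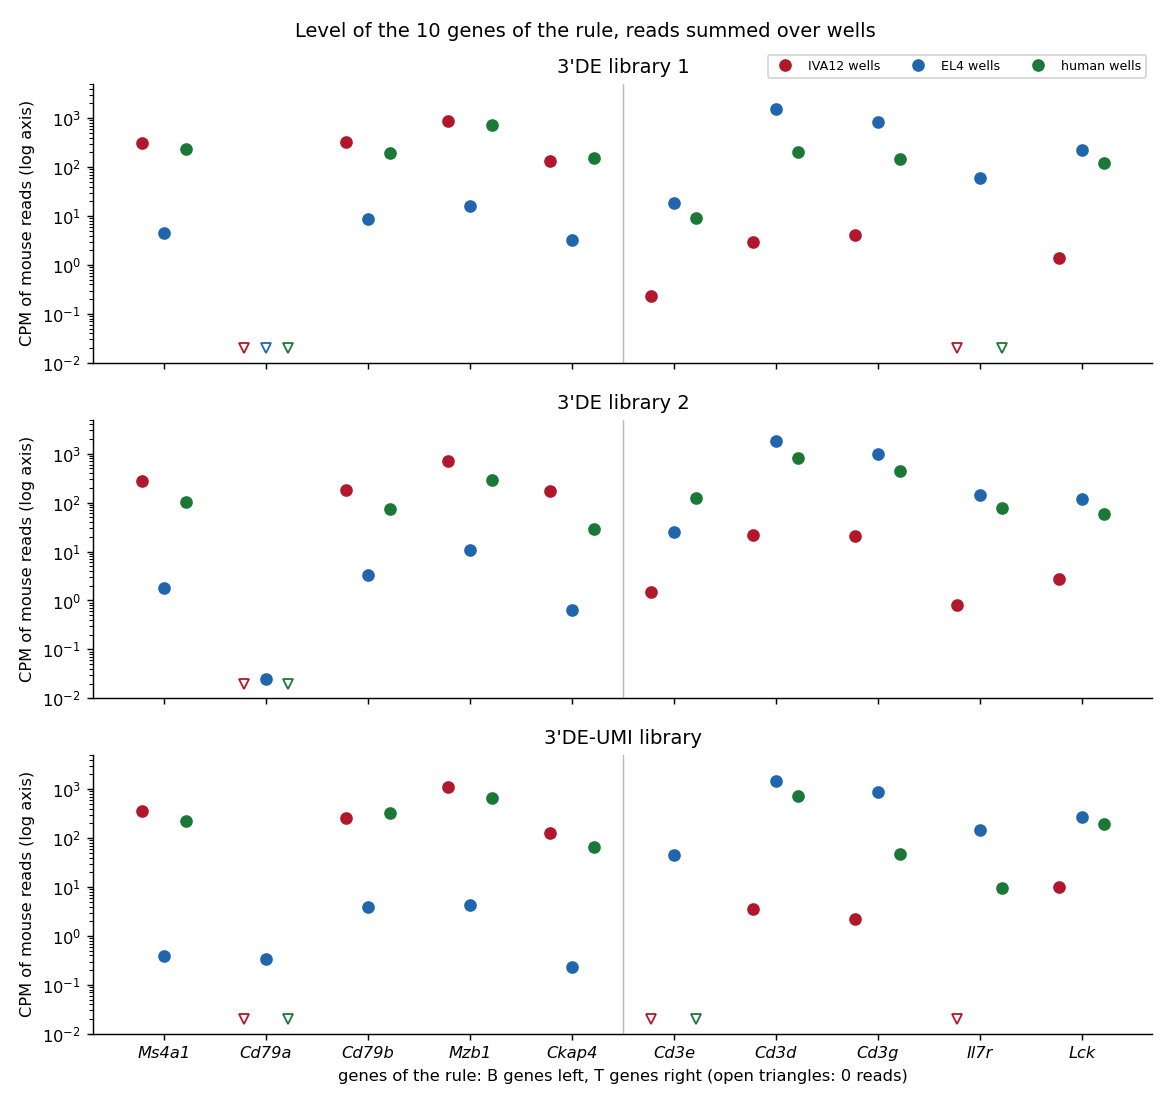
Level of each of the 10 genes in reads summed over IVA12 wells (red), EL4 wells (blue) and human wells (green), as CPM of mouse reads on a log axis, 1 panel per library, with open triangles for sums of 0 reads. Ms4a1, Cd79b, Mzb1 and Ckap4 are higher in IVA12 than in EL4 wells of every panel, and Cd79a is at 0 in IVA12 wells of all 3. Human wells lie below IVA12 wells for these 4 genes, except Ckap4 in library 1 (151 against 133 CPM) and Cd79b in the UMI library (331 against 257 CPM). Each T gene is over 10-fold lower in IVA12 than in EL4 wells of every panel.

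Many IVA12 wells showed only some of the 4 detectable B genes, and those with all of them were deeper. In library 1, 45.5% of IVA12 wells held reads of 4 B genes, against 38.4% in library 2 and 17.7% in the UMI library. The median depth of wells with 4 genes was 21717.5, 68822 and 84028 mouse reads. Wells with 1 gene had medians of 5891, 5848 and 20417 mouse reads. In each library the median depth rose with every further B gene detected, and the number of B genes was not compared at matched depth.

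The T genes were low in IVA12 wells by the choice itself, but they were not absent, and their number differed between libraries. T gene reads were found in 9.32% of IVA12 wells of library 1, 76.0% of those of library 2 and 17.2% of those of the UMI library. Cd3d alone was found in 65.5% of IVA12 wells of library 2, at 22.03 CPM, against 2.92 and 3.54 CPM in the other libraries. In EL4 wells the level of Cd3d was 1579, 1831 and 1455 CPM. Il7r gave no read in IVA12 wells of library 1 and of the UMI library and 12 reads in library 2, where EL4 wells held 5765.

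The same T genes were also found in human wells, which had over 90% of their reads on human genes. IVA12 wells of library 2 held a mean of 3.11 T gene reads, and human wells of that library held 3.84. In library 1 the means were 0.168 and 0.300, and in the UMI library they were 0.747 and 0.370. The last of these rested partly on 1 IVA12 well with 57 reads, without which the mean was 0.462. B gene reads in EL4 wells came to 0.925, 1.37 and 0.376 per well, against 0.814, 1.27 and 0.487 in human wells. Counted per well, stray marker reads were most frequent in library 2 in each of these kinds of wells. That library was also the deepest, with 109702878 reads against 35581264 in library 1 and 44883618 in the UMI library. Per mouse read, Ms4a1, Cd79b, Mzb1 and Ckap4 were each lower in EL4 wells of library 2 than of library 1. In human wells of library 1, library 2 and the UMI library, the B genes stood at 1310, 499 and 1298 CPM. The T genes there stood at 483, 1505 and 987 CPM. In library 2, 67.1% of human wells held a T gene read. T gene reads of IVA12 wells are limited by the choice to a part of the B gene reads, while those of human wells are not, so the means are given side by side with no comparison.

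**Figure D3:**
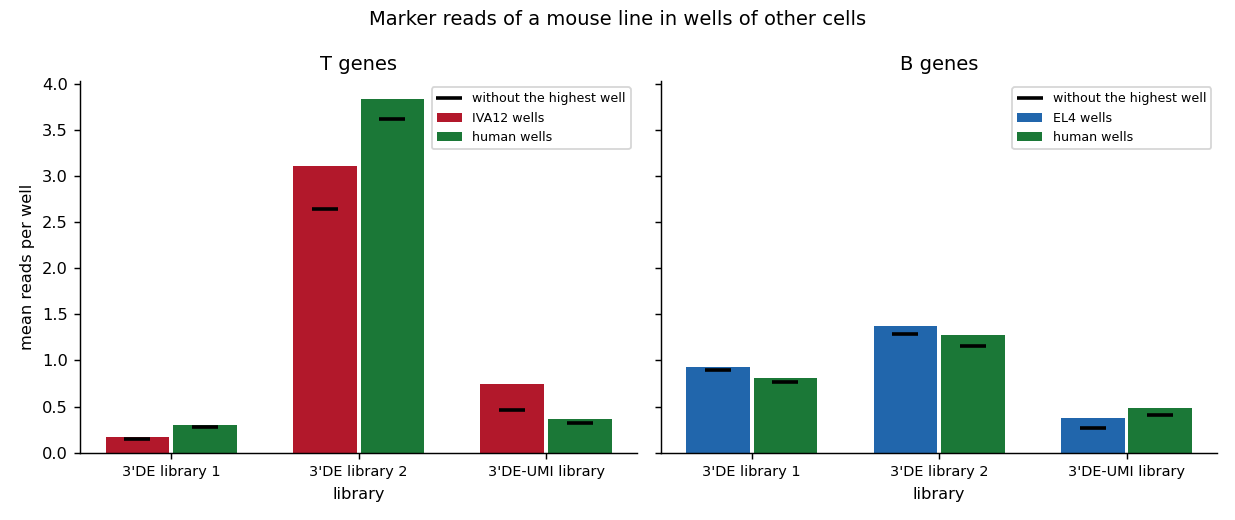
Mean reads per well of the T genes in IVA12 and human wells (left) and of the B genes in EL4 and human wells (right), by library, with a black dash for the mean without the highest well. T gene reads reach 3.11 per IVA12 well and 3.84 per human well in library 2, and lie under 0.75 per well in the other libraries.

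The mouse reads of human wells are described against the levels in the mouse wells. The human wells were not chosen by these genes, but the levels they are set against come from wells that were. Among their mouse reads, the B genes in library 1 stood at 80.9% of their level in IVA12 wells (434 reads, exact Poisson 95% interval 73.4 to 88.8%), and the T genes at 17.8% of their level in EL4 wells (160 reads, 15.2 to 20.8%). IVA12 wells held 39.3% of the reads of the 2 mouse lines in that library. In the UMI library the values were 69.0% for the B genes and 35.4% for the T genes, where IVA12 held 34.6% of the reads of both lines. In library 2 they were 37.2% and 48.6%, where IVA12 held 27.0%. Without the 10% of human wells with most mouse reads, an alternative chosen after seeing the data, the B gene values were 70.8%, 49.9% and 35.8% in the order library 1, the UMI library and library 2, and the T gene values 15.8%, 45.5% and 60.4%. Read counts are not counts of molecules, and the intervals do not cover the spread between wells. IVA12 wells themselves held few human reads, with a median of 0.408%, 1.70% and 0.315% of their reads in library 1, library 2 and the UMI library.

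The depth of IVA12 wells was even in library 1 and spread out in the other libraries. The upper quartile of mouse reads per well was 1.68 times the lower in library 1, 5.90 times in library 2 and 2.63 times in the UMI library. The deepest 10% of IVA12 wells held 16.0%, 43.2% and 30.0% of the IVA12 reads. The summed reads over IVA12 wells were 8557031, 14843420 and 9331513.

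IVA12 wells showed a median of 2667.5 mouse genes in library 1, 2560 in library 2 and 1706.5 in the UMI library. At 5000 reads per well the medians were 1588, 1500 and 1160 genes. The log2 difference of the UMI library from the mean over library 1 and library 2 was -0.41, and the SD of the log2 medians of those libraries was 0.058. This difference grew with the depth taken, from -0.22 at 2000 reads to -0.57 at 10000 reads, and was -0.61 with all reads. EL4 wells had 1596, 1445 and 948.5 genes at 5000 reads. The log2 difference of IVA12 from EL4 was -0.01 in library 1, 0.05 in library 2 and 0.29 in the UMI library, with a mean of 0.11 and a SD of 0.16 over the 3 libraries. The difference was largest in the UMI library, where IVA12 wells held more genes. That library enters the SD, so the SD is no yardstick for library 1 and library 2. With 3 pairs no exact test can reach the threshold, and this gap was not tested. With all reads and wells grouped by depth, the IVA12 median was above the EL4 median in each of the 4 depth groups of library 2, from 1440.5 against 1278 genes at 5000 to 10000 reads to 3443 against 2907 at 40000 to 80000 reads. In the UMI library the medians were 516 and 519 genes at 5000 to 10000 reads and 2115 and 1740.5 at 40000 to 80000 reads.

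**Figure D4:**
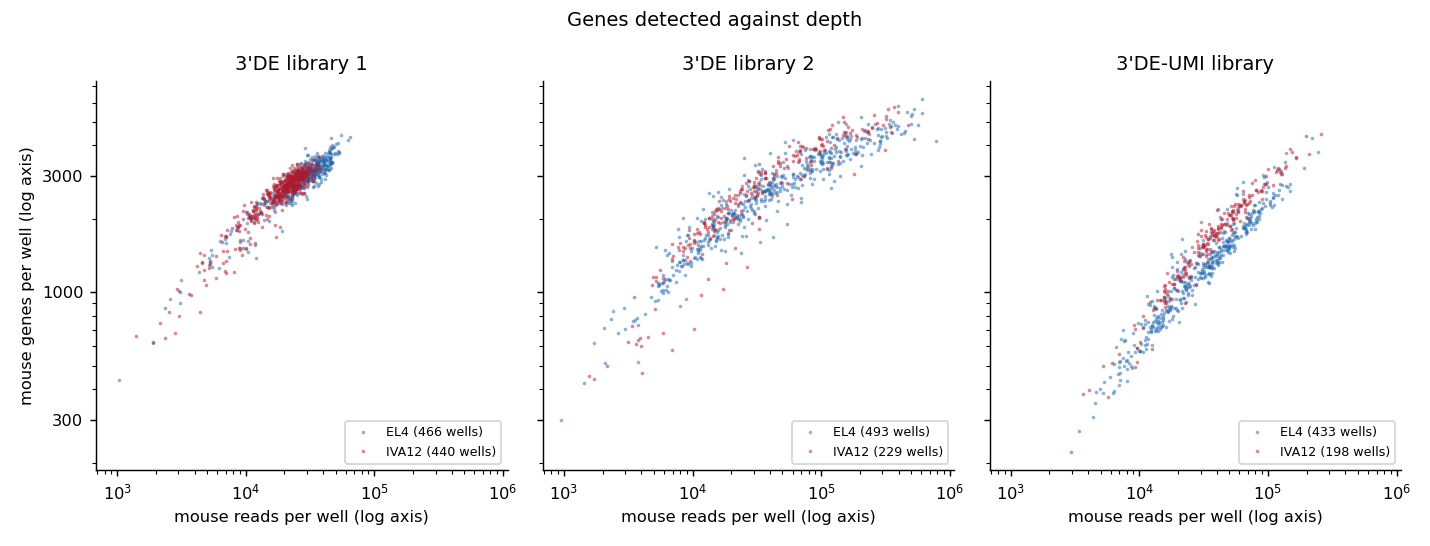
Mouse genes detected against mouse reads per well, both on log axes, for IVA12 (red) and EL4 (blue) wells of each library. At 20000 to 40000 reads the medians of IVA12 and EL4 were 2904 and 3002 genes in library 1, 2590 and 2383 in library 2 and 1508 and 1226 in the UMI library. At 5000 to 10000 reads in the UMI library they were 516 and 519 genes.

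In the UMI library the UMI table gave a median of 3481 UMIs per IVA12 well (quartiles 2144.75 and 5375.5) and 2807 per EL4 well. The ratio of reads to UMIs had a mean of 10.6 ± 0.98 in IVA12 wells (SD over 198 wells) and 11.2 ± 1.13 in EL4 wells (SD over 433 wells). Reads and UMIs were counted by separate pipelines, so this ratio is not the number of times each UMI was read. Counted in molecules, the B genes came down to few copies. Mzb1 gave 768 UMIs in all, a mean of 3.88 per IVA12 well, and was found in 94.9% of wells. Ms4a1 gave 188 UMIs, Cd79b 181 and Ckap4 116, each with a median of 1 UMI in the wells that had any. In IVA12 wells Cd3d had 33 reads and 18 UMIs, a ratio of 1.83, and Cd3g had 21 reads and 7 UMIs, a ratio of 3. Lck had 94 reads and 8 UMIs, a ratio of 11.75, and Cd3e and Il7r had 0 reads. Mzb1 had 10552 reads and a ratio of 13.7, so the T genes did not share a low ratio.

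Genes other than those 10 were compared between the lines on reads summed over the wells of each line and library, with the library as a block (6 sums, edgeR quasi-likelihood test, Benjamini-Hochberg adjusted p under 0.05). IVA12 differed from EL4 in 4496 of 11222 genes tested, or 40.1%. Of these, 2193 were higher and 2303 lower in IVA12. The median log2 change over all genes tested was 0.03, and 1103 called genes were over 4-fold higher and 1144 over 4-fold lower in IVA12. Among the called genes, 72 of the higher had no read in any EL4 sum and 106 of the lower had none in any IVA12 sum, and the fitted size of such changes is not a measured fold. Leaving out library 1 gave 2922 calls and leaving out library 2 gave 2944.

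Much of the transcriptome was shared by the lines. Of 2333 genes with at least 50 CPM in IVA12 wells of all 3 libraries, 1326 (56.8%) were within 2-fold of EL4 in every library. Only 53 (2.27%) stood below 5% of the IVA12 level in EL4 wells of every library. In the other direction, 94 of 2118 such EL4 genes (4.44%) stood below 5% of the EL4 level in IVA12 wells of every library. The difference between these shares was not tested.

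The identifiers with the largest changes were near silent in the other line. ENSMUSG00000105646 was at 131, 174 and 66.7 CPM in IVA12 wells of library 1, library 2 and the UMI library, against 0.152, 0.4 and 0.912 CPM in EL4 wells (log2 change 7.70 ± 0.60 SE, edgeR adjusted p = 3.63e-05). It was found in 55.7%, 45.9% and 25.8% of IVA12 wells. ENSMUSG00000046432 was at 156, 176 and 86.0 CPM in IVA12 wells and at 3.18, 0.475 and 0.057 CPM in EL4 wells (7.24 ± 0.66, edgeR adjusted p = 7.87e-05). In the reverse direction, ENSMUSG00000041272 gave 2, 4 and 0 reads in IVA12 wells, where EL4 wells held 64.1, 89.3 and 150 CPM (-9.25 ± 0.54, edgeR adjusted p = 1.04e-05). ENSMUSG00000047735 gave 3, 3 and 0 reads in IVA12 wells, where EL4 wells held 52.3, 62.7 and 92.9 CPM (-8.69 ± 0.58, edgeR adjusted p = 1.72e-05). These identifiers were picked for the largest called changes, so the gap between the 3 sums of each line follows from the choice.

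**Figure D5:**
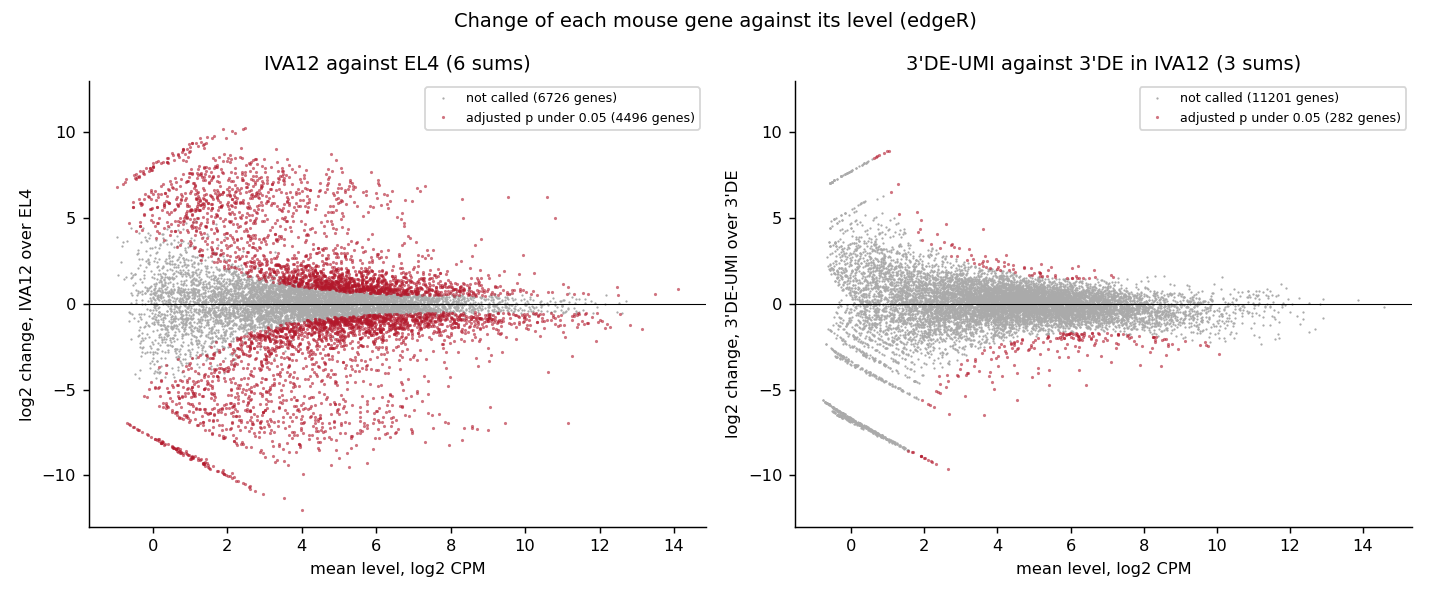
Log2 change of each gene against its mean log2 CPM for IVA12 against EL4 (left, 6 sums) and for 3'DE-UMI against 3'DE within IVA12 (right, 3 sums), with genes of an edgeR adjusted p under 0.05 in red. The left panel holds 4496 called genes on both sides of 0 and the right panel 282.

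Within IVA12, the protocols were compared on 3 sums. With 1 residual degree of freedom left, the spread of the single UMI library had to be taken from that between library 1 and library 2. The p-values set this library against the others, and the protocol and the single library made with it cannot be told apart. Where UMI counts replace reads, only the UMI library was switched, and library 1 and library 2 stayed in reads from the other pipeline. Unit and pipeline are then joined with the protocol as well. The test called 282 of 11483 genes (2.46%), of which 84 were higher and 198 lower in the UMI library, and the median log2 change over all genes tested was -0.02. Of the higher genes 7 had no read in library 1 and library 2, and of the lower genes 13 had none in the UMI library. The excess of lower genes depended on the counts used, since with UMI counts in place of reads 211 of 281 called genes were higher, and only 71 genes were called both ways. With the stricter choice of wells, 1 gene was called.

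The largest drop was in ENSMUSG00000049422, at 101 and 143 CPM in IVA12 wells of the 3'DE libraries and 5.26 CPM in the UMI library, a log2 change of -4.72 ± 0.63 (SE, edgeR adjusted p = 8.80e-10). It was found in 46.4% and 48.5% of IVA12 wells and then in 3.54%. In EL4 wells the same identifier stood at 340, 352 and 4.90 CPM. ENSMUSG00000070780 stood at 100.4, 107 and 8.37 CPM in IVA12 wells (-3.84 ± 0.60, edgeR adjusted p = 3.25e-07). ENSMUSG00000086370 was at 11.1 and 18.4 CPM in the 3'DE libraries and at 85.9 CPM in the UMI library (2.35 ± 0.50, edgeR adjusted p = 9.38e-04), and its call was lost with UMI counts (edgeR adjusted p = 0.0682). ENSMUSG00000003779 was at 6.32 and 11.9 CPM and then at 50.1 CPM (2.27 ± 0.57, edgeR adjusted p = 0.00867). All 4 identifiers were picked for their size of change, so both 3'DE libraries lying on the same side of the UMI library follows from the choice. With the stricter choice of wells, ENSMUSG00000070780, ENSMUSG00000086370 and ENSMUSG00000003779 kept their direction but were no longer called.

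Of the 1103 genes called and over 4-fold higher in IVA12 than in EL4, 25 (2.27%) were called between protocols within IVA12, with a median log2 change of 0.03. Of the 613 genes over 4-fold lower in IVA12 and present in both fits, 13 (2.12%) were called, with a median of -0.29. Over all 10552 genes in both fits, 264 (2.502%) were called, with a median of -0.03. The IVA12 sums enter both comparisons, and the differences between these groups of genes were not tested.

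Whether the difference between the lines depended on the protocol was asked with an interaction term (6 sums, 1 residual degree of freedom). It was called for 311 of 13190 genes (2.36%), 176 of them with a larger IVA12 over EL4 ratio in the UMI library. This term again rests on the single UMI library, from which the protocol cannot be told apart, and the count was not stable. It was 133 with wells thinned to 5000 reads, 40 with DESeq2 and 7 with UMI counts in the UMI library, and 1 of those 7 genes was among the 311. The identifiers with the largest terms were at 0 in one line of that library. ENSMUSG00000079627 was at 228, 160 and 96.8 CPM in IVA12 wells, while EL4 wells held 4.17, 2.35 and 0 CPM (edgeR adjusted p = 3.08e-05). IVA12 exceeded EL4 54.7-fold and 68.3-fold in the 3'DE libraries and, counted in UMIs, at least 65.9-fold in the UMI library (111 UMIs against a limit of 3 over the EL4 wells). The bound is only a lower limit and is in UMIs, while the 3'DE ratios are in reads, so whether the ratio changed cannot be told from these values. ENSMUSG00000031176 was at 25.8, 38.1 and 50.03 CPM in IVA12 wells and at 2.05, 0.375 and 0 CPM in EL4 wells (edgeR adjusted p = 0.00264). ENSMUSG00000064210 was at 45.2, 69.1 and 73.2 CPM in EL4 wells and at 1.05, 5.06 and 0 CPM in IVA12 wells (edgeR adjusted p = 4.37e-05). ENSMUSG00000028528 was at 7.58, 19.1 and 64.4 CPM in EL4 wells and at 0.117, 1.15 and 0 CPM in IVA12 wells (edgeR adjusted p = 0.00282). All 4 identifiers lost their call with UMI counts (edgeR adjusted p from 0.961 to 1) and with thinned wells (0.198 to 0.643). Relative to the IVA12 level, the stray reads of 4 B genes in EL4 wells fell from library 1 to library 2 to the UMI library. Relative to the EL4 level, the T genes in IVA12 wells shared no order of the libraries. As a percentage of the IVA12 level, EL4 wells of library 1, library 2 and the UMI library held 1.51%, 0.634% and 0.109% of Ms4a1, 1.88%, 1.56% and 0.382% of Mzb1, 2.38%, 0.37% and 0.175% of Ckap4, and 2.69%, 1.88% and 1.55% of Cd79b. As a percentage of the EL4 level, IVA12 wells held 0.185%, 1.203% and 0.243% of Cd3d and 0.633%, 2.23% and 3.71% of Lck, and Il7r ranged from 0 to 0.563%, Cd3e from 0 to 5.80% and Cd3g from 0.258% to 2.16%. The part of such reads in the interaction was not tested.

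The 2 protocols and both mixtures were last set side by side within IVA12, with 1 sum each and no test. Among genes with at least 50 CPM in either library, 6 of 3277 (0.183%) differed over 4-fold between library 1 and library 2, on log2(CPM + 1). Between library 2 and the UMI library, from the same mixture, the count was 50 of 3640 (1.37%), and between library 1 and the UMI library it was 89 of 3483 (2.56%). The same pairs of libraries in EL4 gave 10 of 2925 (0.342%), 176 of 3343 (5.26%) and 238 of 3298 (7.22%). The identifier that fell most in both libraries of the later mixture was ENSMUSG00000020955, at 50.9 CPM in IVA12 wells of library 1, 9.92 in library 2 and 0.752 in the UMI library. In EL4 wells it stood at 43.8, 41.1 and 11.96 CPM. ENSMUSG00000033793 was lower in the first library, at 25.05 CPM in IVA12 wells, than in library 2 at 84.8 and the UMI library at 87.2. It stood at 33.0, 56.4 and 90.6 CPM in EL4 wells. These identifiers were chosen for their size of change, and depth, mixture and library cannot be told apart in them.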

How the data were processed

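The authors deposited unscaled counts of reads by gene and barcode for each library, made with STAR 2.7.0b in the mappa software on a combined hg19 and mm10 reference, and a table of UMI counts for the 3'DE-UMI library, made with STAR 2.4.2a and the Drop-seq tools. The reference was that of Cell Ranger 1.2.0. The study downsampled reads, but whether the deposited counts are downsampled is not given in the sources used here. Only wells imaged with a single cell had been processed, and no doublet caller was run. The counts held 1704, 1518 and 1560 barcodes, against 1684, 1498 and 1465 processed wells. Of 1635, 1432 and 1293 kept wells, 922, 773 and 700 were mouse wells and 533, 484 and 557 human wells. The remaining kept wells had 10% to 90% of their reads on human genes and entered neither group.

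Groups came from the titles in the labels. The wells and gene lists were chosen with earlier results of these data known. Mouse lists by symbol were not used here, since no table at hand pairs mouse identifiers with symbols. Identifiers were named by a rule: adjusted p under 0.05, at least 50 CPM in each library of the higher group (in any sum for the interaction), and the 2 largest changes in each direction. For the mixtures it was the largest smaller fold of both later libraries, of which 1 identifier per direction is given.

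Counts were summed per library and line and fitted in edgeR 4.0.16 (filterByExpr, TMM, quasi-likelihood test, two-sided), without the 10 genes that chose the wells. DESeq2 1.42.0 was an alternative. CPM values are per 1000000 mouse reads of the summed wells. For the fitted identifiers the 10 genes were left out of the total. A limit for a count of 0 is 3 counts. Reads are not independent molecules, so intervals and limits cover counting error only. Library totals were 35581264, 109702878 and 44883618 reads. Other settings tried were the normalization, the filter on low counts, thinning, the limits on wells, UMI counts in the UMI library alone, the block and leaving out each library.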

Additional observations from a re-analysis of the deposited data

Results flagged for a closer look

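The edgeR interaction term compared the difference between IVA12 and EL4 in the UMI library with that in the 3'DE libraries. It rests on the single UMI library, from which the protocol cannot be told apart. The count of genes called was not stable and fell with DESeq2, with thinned wells and with UMI counts. With the main settings, the term was called for 311 of 13190 genes (2.36%). Among them were ENSMUSG00000079627 (edgeR adjusted p = 3.08e-05) and ENSMUSG00000031176 (edgeR adjusted p = 0.00264), which gave 0 reads in EL4 wells of the UMI library, and ENSMUSG00000064210 (edgeR adjusted p = 4.37e-05) and ENSMUSG00000028528 (edgeR adjusted p = 0.00282), which gave 0 reads in IVA12 wells of that library. None of these 4 calls held with UMI counts in place of reads, where the edgeR adjusted p was 0.973 for ENSMUSG00000079627, 1 for ENSMUSG00000031176, 0.961 for ENSMUSG00000064210 and 1 for ENSMUSG00000028528. With thinned wells it was 0.26, 0.243, 0.198 and 0.643 in the same order. With DESeq2 the adjusted p of the first 3 was 0.0742, 0.151 and 0.0676, and the last had none.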

How the results depend on the processing

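The count of genes called between IVA12 and EL4 was 2958 without the library as a replicate block, against 4496 with it, and 2922 to 5076 when a library was left out. The 1-gene result of the protocol comparison, against 282, came with the stricter choice of wells. The interaction count of 311 became 40 with DESeq2, 133 with thinned wells and 7 with UMI counts. The causes were not tested. The split of protocol calls also moved, from 29.8% higher to 10.7% with DESeq2, 50% with thinned wells and 75.1% with UMI counts. The IVA12 share of library 2 was 26.7% with the stricter choice. The protocol difference in genes per well was -0.22 at 2000 reads, -0.57 at 10000 reads and -0.61 without thinning, and leaving out a 3'DE library gave -0.45 to -0.37. The difference between lines was 0.02 to 0.17 when a library was left out. Of the identifiers named, those of the line comparison kept sign and call under all 44 alternative values, those of the protocol comparison under 24 of 28 and those of the interaction under 16 of the 27 that gave an adjusted p, and none changed sign. For the protocol comparison and the interaction, leaving out a 3'DE library leaves no residual degrees of freedom and leaving out the UMI library leaves no contrast, so no count was made. Every result rests on 3 libraries, of which 1 was made with the 3'DE-UMI protocol.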
